A study of Homo sapiens with 2 samples.

Results

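The 46 genes described here act in recombination, crosslink and mismatch repair, with end joining and the checkpoint kinases beside them. They were chosen by symbol from a list of these pathways, and all 46 were among the 19927 gene rows of the count table. Both groups were Huh7, an established line of human hepatocellular carcinoma cells, with no engineered change named in the labels. After attachment, 1 culture received medium with homochlorcyclizine dihydrochloride (HD), an H1 antihistamine, and 1 received medium with the solvent DMSO. Both were harvested after 48 h. The sources used here give no dose of HD. Polyadenylated mRNA was sequenced, giving 1 library a group.

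Homologous recombination copies the sister chromatid to mend a broken chromosome. Nucleases cut the broken end back to single-stranded DNA, the BRCA proteins load the recombinase onto it, and motor proteins and helicases then drive and undo the joint. The Fanconi anemia pathway marks the FANCD2 and FANCI pair at DNA crosslinks and passes them to the recombination proteins. Mismatch repair removes copying errors behind the replication fork, and end joining ligates broken ends without a template. Recombination and mismatch repair work mainly with or after DNA replication, whereas end joining works through the whole cell cycle. Many of the recombination genes are known to be transcribed more in dividing than in resting cells, and the adult liver is mostly at rest, unlike a hepatoma line.

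Total counts were 40791119 in the HD library, with 15443 genes detected, and 38133894 in the DMSO library, with 15312 detected. Levels are given as CPM, counts relative to the library size after TMM scaling, and each ratio is HD over DMSO. Because each group is 1 library, no test between conditions can be made and no p-value is given. A gene was called lower or higher when its ratio was at least 2-fold, its 95% counting interval excluded 1, and its mean was at least 1 CPM. The interval covers counting error only: PCR copies are counted as separate reads, and the spread between cultures was not measured. The hepatocyte and hepatoma markers summed to 25840 CPM in the HD library and 28050 CPM in the DMSO library. Of these 12 markers 0 were called, where the rule called 5.1% of all genes lower and 5.81% higher. Of the markers of other cell types, COL1A2 and THY1 (fibroblast) had 0 counts in both libraries, and PTPRC (leukocyte) had 6 counts in the HD library and 2 in the DMSO library. The 7 fibroblast markers summed to 37.9 CPM in the HD library and 31.8 CPM in the DMSO library, and 3 of them reached 1 CPM. The 6 endothelial markers summed to 5.99 CPM in the HD library and 12.1 CPM in the DMSO library. Only 1 endothelial marker reached 1 CPM, and it was called lower (log2 ratio -1.05). The 7 leukocyte markers summed to 530 CPM in the HD library and 450 CPM in the DMSO library, of which LYZ alone gave 527 CPM in the HD library and 446 CPM in the DMSO library.

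The lower genes were mostly those of recombination and crosslink repair. Of the 46 genes, 18 (39.1%) were at least 2-fold lower in the HD library, where the same rule called 5.1% of the 12353 genes at 1 CPM. No member was at least 2-fold higher, against 5.81% of all genes. The called members were BRCA1, BRCA2, BARD1 and BRIP1 of the mediators, XRCC2 and XRCC3 of the recombinase paralogs, RAD54L and RAD51AP1, EXO1, BLM, FANCB, FANCE, FANCG, FANCM, FANCD2, FANCI, CHEK1 and CHEK2. The median log2 ratio of the 46 was -0.80, against -0.01 over all genes, and their log2 ratios ran from -1.76 to 0.34. In all, 42 members lay below a ratio of 1, 39 of them with an interval that excluded 1. In bulk RNA, fewer cells that express a gene and less of its RNA per cell cannot be told apart.

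**Figure D1:**
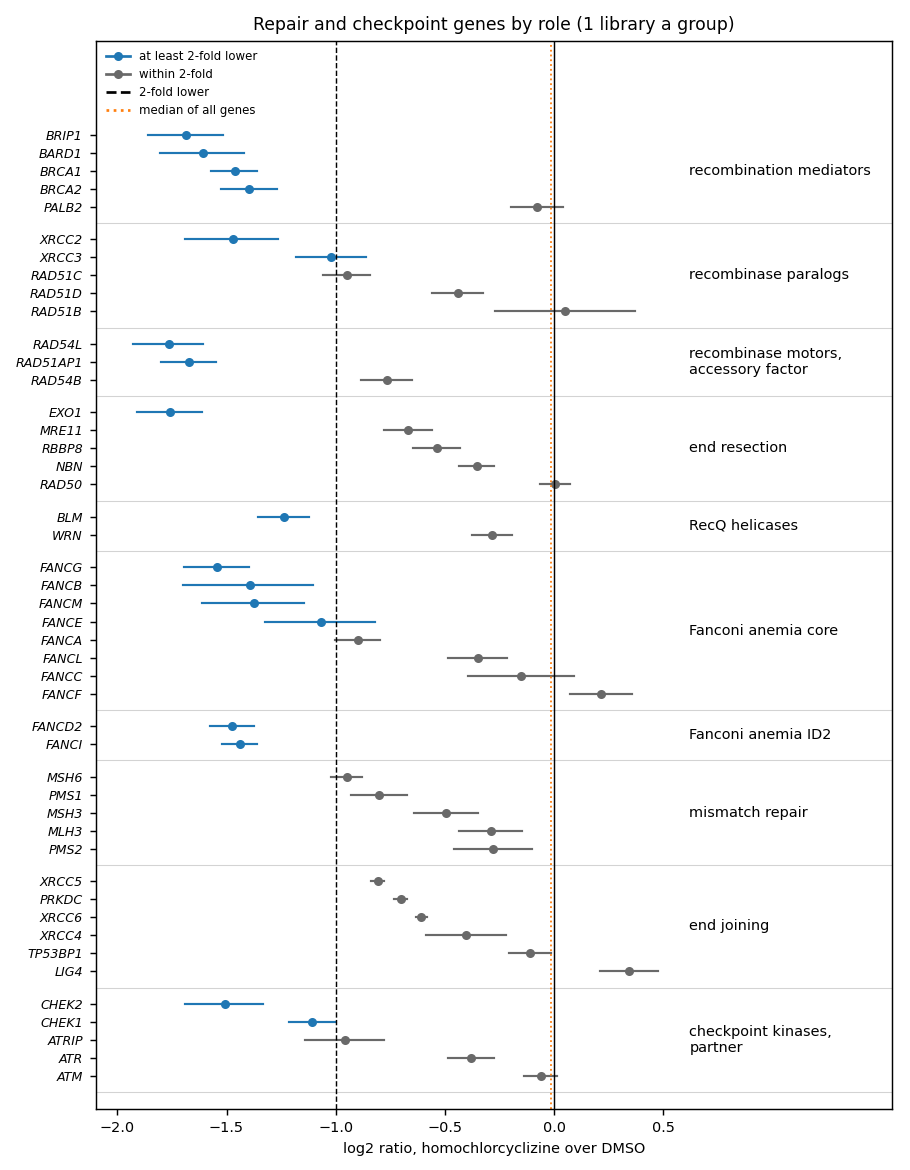
Log2 ratio of HD over DMSO for each of the 46 genes, in role groups, with the 95% counting interval as a bar (1 library a group). The 18 genes at least 2-fold lower are blue, the dashed line marks 2-fold and the dotted line the median of all genes. Mismatch repair and end joining hold no blue point.

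All 46 members passed the filter of 1 CPM, and the lowest count was 135, for FANCB in the HD library. The upper bound of the interval lay at most 1.25-fold above the ratio. The threshold fell in a dense stretch of values, with XRCC3 just inside at a log2 ratio of -1.02 and ATRIP just outside at -0.96. At 1.5-fold, 28 members were lower and 0 higher, where 14.1% of all genes were called in each direction. At 3-fold, 5 were lower, where 1.63% of all genes were. Among all genes ranked by log2 ratio, 25 of the 46 members lay in the lowest 10%. The whole set took 0.235% of the HD library and 0.389% of the DMSO library. Across the 46 genes the log2 ratio had a Spearman correlation of 0.10 with mean CPM and of 0.15 with gene length, which describes genes that share the same pair of libraries.

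The 4 members with the largest fall, ranked by the interval bound nearest to 1, were EXO1, RAD54L, RAD51AP1 and BRIP1. Their promoters are shown because they let a reader see what sequence stands before the lowest transcripts. Each runs from 250 bases before to 50 bases after the gene start (RefSeq, GRCh38.p14, gene strand, 5′ to 3′). Capitals mark matches to the motifs described further on: E2F (TTTCGCGC, TTTGGCGC, TTTCCCGC or TTTGCCGC), CHR (TTTGAA or TTCGAA) and CCAAT, on either strand. The windows are chr1:241847954-241848253 (+) for EXO1, chr1:46247438-46247737 (+) for RAD54L, chr12:4538640-4538939 (+) for RAD51AP1 and chr17:61863479-61863778 (−) for BRIP1. EXO1 and RAD54L each have 2 windows in the table, and the first listed is printed. EXO1 holds 1 E2F match, which begins at base 5 of the transcript, counting the start as base 1. RAD54L holds 2 CCAAT matches and RAD51AP1 holds 1. BRIP1 holds 3 CCAAT matches and 1 CHR match.
EXO1: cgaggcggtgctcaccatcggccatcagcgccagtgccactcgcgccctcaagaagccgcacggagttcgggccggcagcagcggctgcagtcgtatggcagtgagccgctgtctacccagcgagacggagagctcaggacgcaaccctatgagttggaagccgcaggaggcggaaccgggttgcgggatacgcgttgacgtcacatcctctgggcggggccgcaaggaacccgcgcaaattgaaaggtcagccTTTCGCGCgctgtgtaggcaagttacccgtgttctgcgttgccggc
RAD54L: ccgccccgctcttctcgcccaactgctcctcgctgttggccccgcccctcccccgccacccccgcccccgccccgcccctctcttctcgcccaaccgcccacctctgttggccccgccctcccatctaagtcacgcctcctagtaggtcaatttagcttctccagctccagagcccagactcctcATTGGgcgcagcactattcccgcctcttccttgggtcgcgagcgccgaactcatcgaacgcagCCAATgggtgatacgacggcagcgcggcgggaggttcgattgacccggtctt
RAD51AP1: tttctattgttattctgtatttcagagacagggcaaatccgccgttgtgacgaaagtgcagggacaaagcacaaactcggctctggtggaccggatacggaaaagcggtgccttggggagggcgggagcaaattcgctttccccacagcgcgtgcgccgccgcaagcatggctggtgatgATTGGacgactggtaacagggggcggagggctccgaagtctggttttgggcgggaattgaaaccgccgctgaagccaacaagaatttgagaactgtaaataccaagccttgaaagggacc
BRIP1: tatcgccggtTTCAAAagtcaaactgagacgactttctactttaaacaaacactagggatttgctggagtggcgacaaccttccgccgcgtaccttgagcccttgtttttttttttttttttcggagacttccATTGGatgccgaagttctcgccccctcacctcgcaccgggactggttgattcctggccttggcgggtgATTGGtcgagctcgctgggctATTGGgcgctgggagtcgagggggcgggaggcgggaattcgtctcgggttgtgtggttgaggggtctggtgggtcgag

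Of the 5 mediators, which bring the recombinase to resected DNA, 4 were lower and their median log2 ratio was -1.46. BRCA1 (chr17:43044295-43170327) was at 24.9 CPM in the HD library and 68.7 CPM in the DMSO library, a ratio of 0.363 (0.337 to 0.390). Its ring-finger partner BARD1, with which it forms a ubiquitin ligase, was at 7.42 CPM in the HD library and 22.7 CPM in the DMSO library (ratio 0.328, 0.286 to 0.373). The helicase BRIP1, which binds BRCA1 and is also a Fanconi anemia gene, was at 9.16 CPM with HD and 29.5 CPM with DMSO (ratio 0.311, 0.275 to 0.349). BRCA2 (chr13:32315077-32400268), which carries the recombinase to the filament, was at 17.0 CPM with HD and 44.9 CPM with DMSO (ratio 0.38, 0.347 to 0.415). The ratios of these 4 genes were thus close to each other, between 0.311 and 0.38. PALB2, the bridge between BRCA1 and BRCA2, stood apart from its partners, at 28.9 CPM in the HD library and 30.5 CPM in the DMSO library (ratio 0.948, 0.873 to 1.03). Per length, BRCA1 had 0.540 times the FPKM of PALB2 in the HD library and 1.41 times in the DMSO library, so the order of this pair differed between the libraries. BRCA1 and BARD1 kept nearly the same proportion, with an FPKM ratio of 2.58 in the HD library and 2.32 in the DMSO library.

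The 5 recombinase paralogs, which stabilise the filament, did not move as 1 group: 2 were lower and the median log2 ratio was -0.95. XRCC2 was at 6.19 CPM in the HD library and 17.2 CPM in the DMSO library (ratio 0.361, 0.310 to 0.417). XRCC3 was at 12.1 CPM with HD and 24.5 CPM with DMSO (ratio 0.493, 0.441 to 0.550). RAD51C, which sits in complexes with either of them, was at 26.7 CPM with HD and 51.6 CPM with DMSO, a ratio of 0.518 (0.481 to 0.558) that did not reach 2-fold. RAD51D, which pairs directly with XRCC2, was at 26.2 CPM in the HD library and 35.6 CPM in the DMSO library (ratio 0.736, 0.679 to 0.798). RAD51B had 4.25 CPM with HD and 4.11 CPM with DMSO, and its interval of 0.829 to 1.29 spanned 1. Genes for subunits of 1 complex therefore differed in ratio: RAD51D had 2.07 times the FPKM of XRCC2 in the HD library and 1.01 times in the DMSO library. These FPKM levels depend on the gene length used, 9755 bases for RAD51D and 4771 bases for XRCC2. By CPM, RAD51D stood above XRCC2 in both libraries. For RAD51C and XRCC3 the FPKM ratio was 3.06 in the HD library and 2.91 in the DMSO library.

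RAD54L and RAD51AP1 were among the lowest members. RAD54L, a motor that helps the filament invade the template, was at 10.3 CPM in the HD library and 35.1 CPM in the DMSO library (ratio 0.295, 0.263 to 0.329). RAD51AP1, which stimulates the same pairing step, was at 16.6 CPM with HD and 52.9 CPM with DMSO (ratio 0.314, 0.287 to 0.342). The related motor RAD54B was at 23.5 CPM with HD and 39.9 CPM with DMSO, a ratio of 0.588 (0.541 to 0.637), above the 2-fold limit. RAD54B shares 59.1% of its annotated exon bases with FSBP, which is listed at 0 counts in both libraries.

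End resection split by step. EXO1, the nuclease of long-range resection, was at 11.8 CPM in the HD library and 40.1 CPM in the DMSO library (ratio 0.296, 0.266 to 0.327), and it was the 1 called gene of 5. MRE11, the nuclease that begins resection, was at 28.3 CPM with HD and 45.0 CPM with DMSO (ratio 0.629, 0.583 to 0.678). RBBP8, known as CtIP, which activates MRE11, was at 29.2 CPM with HD and 42.3 CPM with DMSO (ratio 0.689, 0.638 to 0.743). The other parts of the MRE11 complex were nearer to 1. NBN, its signalling subunit, was at 54.9 CPM with HD and 70.2 CPM with DMSO (ratio 0.782, 0.739 to 0.828). RAD50, the ATPase that holds the ends together, was at 86.5 CPM with HD and 86.3 CPM with DMSO (ratio 1.00, 0.956 to 1.05). RAD50 thus had 2.33 times the FPKM of MRE11 in the HD library and 1.46 times in the DMSO library. The RecQ helicases also differed from each other. BLM, which undoes recombination joints, was at 20.8 CPM with HD and 49.0 CPM with DMSO (ratio 0.424, 0.390 to 0.460), and WRN was at 45.4 CPM with HD and 55.3 CPM with DMSO (ratio 0.822, 0.772 to 0.875).

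**Figure D2:**
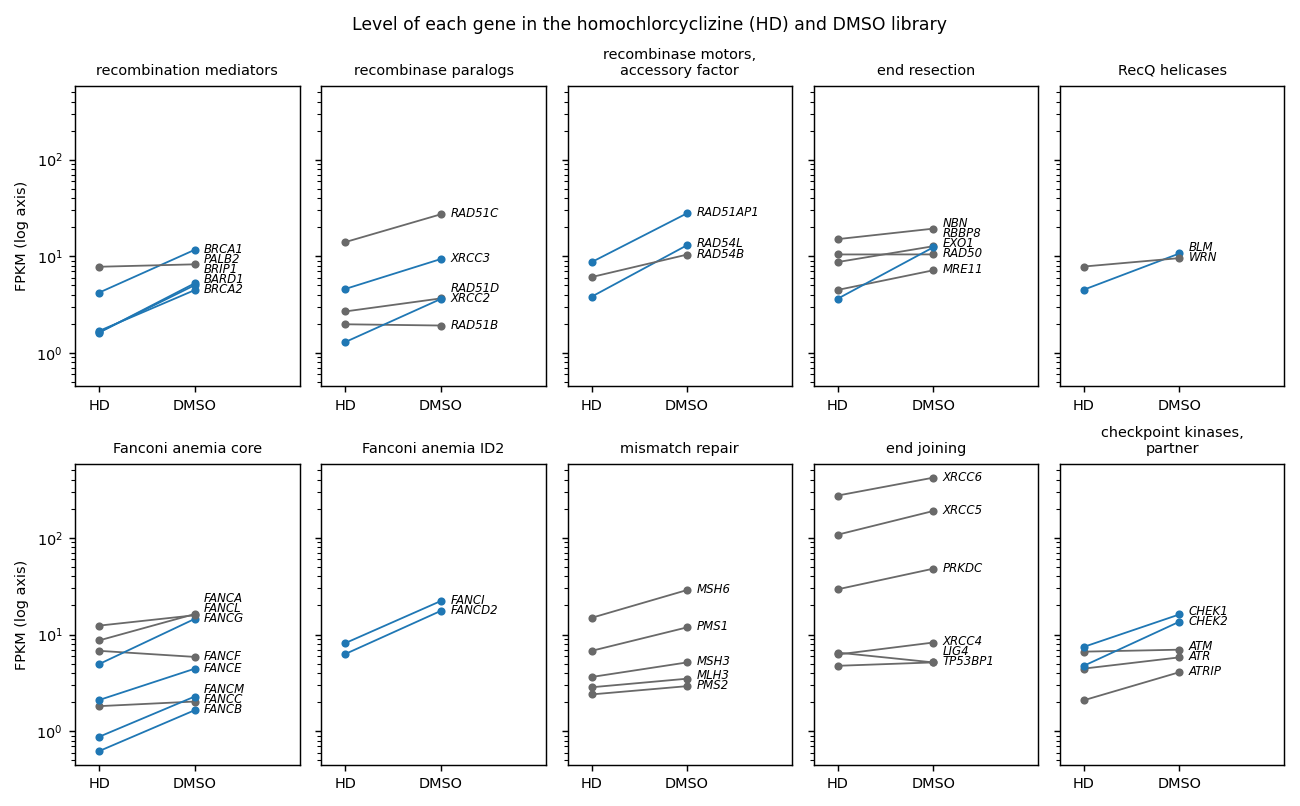
Level of each gene in the HD library (left) and the DMSO library (right), as deposited FPKM on a log axis, in 10 role groups with 1 library a point. Blue lines are the genes at least 2-fold lower; XRCC6, XRCC5 and PRKDC stand above the others in both libraries.

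In the Fanconi anemia pathway both genes of the ID2 pair and 4 of 8 core genes were lower. FANCD2 (chr3:10026437-10101932), the clamp subunit that is ubiquitinated at crosslinks, was at 27.5 CPM in the HD library and 76.4 CPM in the DMSO library (ratio 0.360, 0.335 to 0.385). Its partner FANCI (chr15:89243979-89317259) was at 41.4 CPM with HD and 112 CPM with DMSO (ratio 0.369, 0.348 to 0.390). The pair moved in proportion, since the FPKM of FANCD2 was 0.771 times that of FANCI in the HD library and 0.790 times in the DMSO library.

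The core complex, which attaches the ubiquitin, held both called and uncalled genes. FANCG, a scaffold that binds FANCA, was at 12.7 CPM in the HD library and 37.0 CPM in the DMSO library (ratio 0.343, 0.309 to 0.379). FANCM, the DNA translocase that anchors the complex, was at 5.28 CPM with HD and 13.7 CPM with DMSO (ratio 0.386, 0.327 to 0.452). FANCB, which sits with the ligase subunit, was at 3.32 CPM with HD and 8.74 CPM with DMSO (ratio 0.381, 0.308 to 0.465). FANCE, which contacts FANCD2, was at 4.91 CPM with HD and 10.3 CPM with DMSO (ratio 0.478, 0.400 to 0.566). The remaining core genes did not reach 2-fold. FANCA was at 30.8 CPM with HD and 57.4 CPM with DMSO (ratio 0.536, 0.5 to 0.575). FANCL, the ubiquitin ligase subunit itself, was at 20.6 CPM with HD and 26.2 CPM with DMSO (ratio 0.784, 0.715 to 0.860). FANCC, which joins FANCE and FANCF, was at 6.78 CPM with HD and 7.54 CPM with DMSO, and its interval of 0.760 to 1.06 spanned 1. FANCF was above 1, at 22.4 CPM in the HD library and 19.3 CPM in the DMSO library (ratio 1.16, 1.05 to 1.28). The substrate FANCI had 0.660 times the FPKM of the ligase FANCL in the HD library and 1.40 times in the DMSO library. By CPM, which takes no account of length, FANCI was above FANCL in both libraries.

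None of the 5 genes grouped under mismatch repair was 2-fold lower, where 5.1% of all genes were, and their median log2 ratio was -0.49. All 5 nevertheless lay below 1 with intervals that excluded it. Each member was placed in only 1 role group, and EXO1 was counted under end resection, so the count depends on this grouping. At 1.5-fold, 2 of the 5 were lower, where 14.1% of all genes were. MSH6, which recognises mispaired bases, was at 59.0 CPM in the HD library and 114 CPM in the DMSO library (ratio 0.518, 0.492 to 0.544). MSH3, which replaces MSH6 for larger loops, was at 16.2 CPM with HD and 22.8 CPM with DMSO (ratio 0.710, 0.640 to 0.786). MSH6 had 4.10 times the FPKM of MSH3 in the HD library and 5.62 times in the DMSO library. Of the partners in the MutL complexes, PMS1 was at 19.1 CPM with HD and 33.3 CPM with DMSO (ratio 0.574, 0.524 to 0.628). MLH3 was at 18.1 CPM with HD and 22.1 CPM with DMSO (ratio 0.819, 0.741 to 0.905), and PMS2 was at 12.1 CPM with HD and 14.6 CPM with DMSO (ratio 0.825, 0.729 to 0.932). PMS2 is uncertain, because 56.3% of its transcript matches the pseudogene PMS2CL with identity up to 99.4%, and PMS2CL is not a row of the count table.

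None of the 6 end joining genes was 2-fold lower either, where 5.1% of all genes were, and their median log2 ratio was -0.51. At 1.5-fold, 3 of the 6 were lower, where 14.1% of all genes were, so the absence of calls depends on the threshold. The parts of the DNA-dependent protein kinase were the most abundant members per length in both libraries. XRCC6 (chr22:41621295-41664041), the Ku70 subunit that threads onto broken ends, was at 573 CPM in the HD library and 873 CPM in the DMSO library (ratio 0.656, 0.645 to 0.667). Its Ku80 partner XRCC5 was at 366 CPM with HD and 641 CPM with DMSO (ratio 0.571, 0.560 to 0.583). The kinase subunit PRKDC was at 396 CPM with HD and 644 CPM with DMSO (ratio 0.615, 0.603 to 0.627). These 3 genes took 56.6% of the members' counts in the HD library and 55.6% in the DMSO library, and the other 43 summed to 1022 CPM with HD and 1724 CPM with DMSO. The ligation step differed from the kinase. XRCC4, the scaffold of the ligase, was at 10.9 CPM with HD and 14.5 CPM with DMSO (ratio 0.756, 0.665 to 0.857). LIG4 (chr13:108207442-108218349), the ligase, was the highest of the 46 ratios, at 26.9 CPM in the HD library and 21.2 CPM in the DMSO library (ratio 1.27, 1.16 to 1.39). The FPKM of XRCC4 was 0.956 times that of LIG4 in the HD library and 1.61 times in the DMSO library. By CPM, which takes no account of length, XRCC4 was below LIG4 in both libraries. TP53BP1, a chromatin reader that restrains resection, was at 42.5 CPM with HD and 45.8 CPM with DMSO (ratio 0.926, 0.866 to 0.991).

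The checkpoint group divided between the apical kinases and the kinases they activate. CHEK2, which ATM activates, was at 8.75 CPM in the HD library and 24.9 CPM in the DMSO library (ratio 0.352, 0.310 to 0.397). CHEK1, which ATR activates, was at 26.5 CPM with HD and 57.1 CPM with DMSO (ratio 0.464, 0.431 to 0.499). ATM itself was at 73.0 CPM with HD and 76.2 CPM with DMSO, with an interval of 0.910 to 1.01 that spanned 1. ATR, the kinase that senses stalled forks, was at 34.1 CPM with HD and 44.4 CPM with DMSO (ratio 0.768, 0.715 to 0.825). Its binding partner ATRIP was at 9.46 CPM with HD and 18.4 CPM with DMSO (ratio 0.515, 0.453 to 0.584). ATM had 1.40 times the FPKM of CHEK2 in the HD library and 0.513 times in the DMSO library. By CPM, which takes no account of length, ATM was above CHEK2 in both libraries. Across all 46 genes the FPKM levels kept much of their order, with a Spearman correlation of 0.85 between the libraries as a description.

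Some counts could hold reads of a neighbour, because the sources used here do not give the strand setting of the counting. XRCC3 shares 76.7% of its annotated exon bases with KLC1 on the opposite strand, and KLC1 had a log2 ratio of -0.06. TP53BP1 shares 28.7% with TUBGCP4 (-0.46), RAD54L 25.1% with LRRC41 (0.39), FANCA 23.6% with ZNF276 (0.31), FANCL 18.7% with VRK2 (-0.22), MSH6 16.2% with FBXO11 (0.13) and FANCF 11.3% with GAS2 (-0.63). Without strand, reads from such pairs cannot be told apart. On the same strand, RAD50 shares 79.7% with another annotated protein-coding gene, ENSG00000283782, for which no row was found in the count table. ATR shares 16.4% with the pseudogene EIF2AK1P1 on the opposite strand, also without a row. ATRIP shares 27.9% with TREX1 on the same strand, and FANCI shares 5.9% with POLG on the opposite strand. TREX1, POLG and FSBP are listed at 0 in both libraries. How the counting treated shared bases is not known, so counts of ATRIP, FANCI and RAD54B may hold reads of these genes. Parts of XRCC6 (67.3% of the transcript), CHEK2 (24.1%) and FANCD2 (22.3%) match pseudogenes with identity of at least 95%, none of which is a row of the table.

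Other genes of the same pathways were counted by the same rule. Of 78 measured genes of 79 listed, 17 (21.8%) were at least 2-fold lower, against 5.1% of all genes. None was at least 2-fold higher, against 5.81%, and the median log2 ratio was -0.32. Among the 27 other recombination and resection genes 7 (25.9%) were lower. RMI2, a partner of BLM, was at 4.57 CPM with HD and 16.8 CPM with DMSO. POLQ, the polymerase of microhomology joining, was at 18.2 CPM with HD and 59.9 CPM with DMSO. The nuclease subunit EME1 (log2 ratio -1.70) and the nuclease DNA2 (-1.59), which resects beside EXO1, were lower as well. Among the 19 other crosslink repair genes 5 (26.3%) were lower, and the median log2 ratio of the 19 was -0.85. CENPX, which binds FANCM, had a log2 ratio of -1.5, and UBE2T, the conjugating enzyme for FANCL, had one of -1.27. The nucleases DCLRE1B (-1.34) and DCLRE1A (-1.16) were lower too.

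Among the 18 measured other end joining and chromatin response genes, 1 (5.56%) was lower, near the 5.1% of all genes. That gene was H2AX, the histone variant phosphorylated at breaks, at 0.786 CPM with HD and 3.25 CPM with DMSO (ratio 0.248, 0.159 to 0.360). This call rests on low counts, 32 with HD and 124 with DMSO. With a filter at 5 CPM, 0 of 16 genes of this list were lower, where 490 of all 10601 genes were. MDC1, which reads the phosphorylated histone, had a log2 ratio of -0.94, and the end joining factor PAXX had one of -0.90. The demethylase KDM4A was 1.52-fold higher, under the limit. Among the 14 other checkpoint genes 4 (28.6%) were lower. These were CLSPN, the adaptor between ATR and CHEK1 (log2 ratio -1.79), the phosphatases CDC25A (-1.66) and CDC25C (-1.59), and the fork protein TIPIN (-1.46).

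Division genes were lower in the same library. Of 28 S phase genes 27 were lower, with a median log2 ratio of -1.48 and log2 ratios from -2.04 to -0.80. They summed to 1530 CPM in the HD library and 4257 CPM in the DMSO library. MCM10, RRM2, GINS2 and UHRF1 led them, with log2 ratios of -2.04, -2.01, -1.93 and -1.92. Of 21 genes of G2 and mitosis all 21 were lower, with a median of -1.84 and summed levels of 919 CPM in the HD library and 3295 CPM in the DMSO library. CENPE, PLK1, CDC20 and KIF20A led these, with log2 ratios of -2.37, -2.33, -2.20 and -2.18. Of the 46 repair genes, 7 lay below the S phase median and 0 below the G2 and mitosis median, and 23 lay within the range of the S phase genes. The part of the division genes in the result for the repair genes was not tested.

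**Figure D3:**
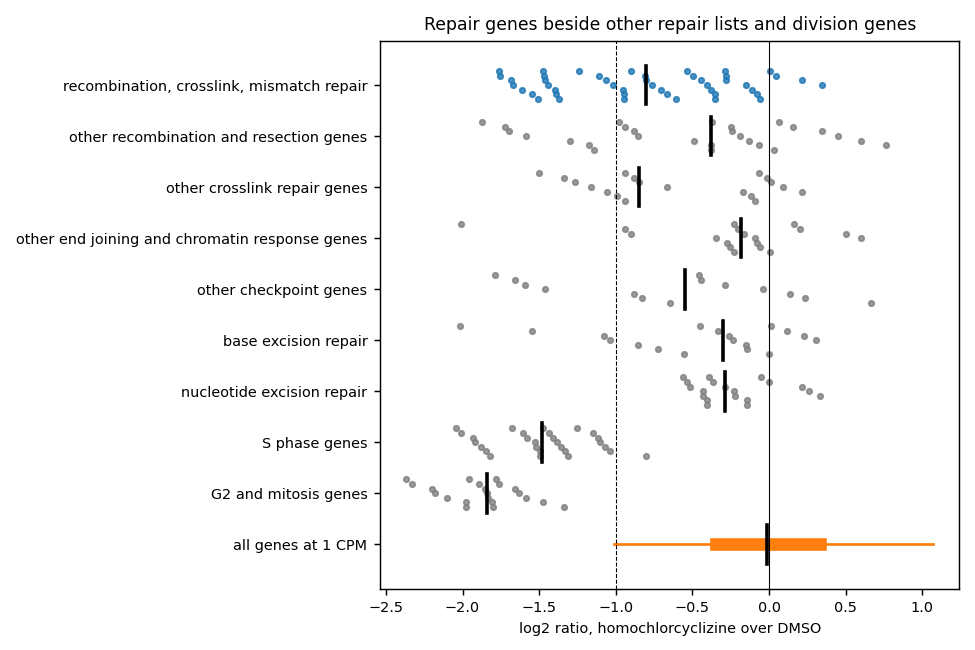
Log2 ratio of HD over DMSO for the 46 genes (blue) and for other lists (grey), 1 point a gene and 1 library a group, with the median as a black bar. The orange row gives all genes at 1 CPM, with the middle 50% as a thick bar and the middle 90% as a thin line. The medians of the S phase list (-1.48) and of the G2 and mitosis list (-1.84) lie left of that of the 46 genes (-0.80), with overlapping points. Nucleotide excision repair holds no point past the dashed 2-fold line, where 5.1% of all genes at 1 CPM were called lower.

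E2F factors act at promoters of S phase genes, and the CHR element marks promoters of G2 and mitosis genes. The RefSeq table held windows for 40 of the 46 genes, 60 windows in all, of which those of 1 gene can overlap. The E2F motif was found in 10 of the 60 windows (16.7%) and in 4.84% of the 14848 windows of genes at 1 CPM. Windows of S phase genes held it in 46.9%, and those of G2 and mitosis genes in 21.1%. Within the repair genes, the motif stood in 3 of 22 windows of the 2-fold lower genes (13.6%) and in 7 of 38 windows of the other members (18.4%). Counted by gene, 3 of the 9 genes with the motif were lower (median log2 ratio -0.90), as were 14 of the 31 without it (median -0.95). Over all genes at 1 CPM with a window, 11.5% of the 672 with the motif were lower, and 4.54% of the 9462 without it. Mismatch repair held it in 3 of 5 genes, with none of them 2-fold lower, and the mediators in 0 of 5. The sites found are shown with the motif in capitals and up to 10 bases on either side, in RefSeq GRCh38.p14 coordinates. The match of MSH3 is palindromic in part, so its capitals cover overlapping matches on both strands.
XRCC2, chr7:152676103-152676130 (+): gagactcaacTTTCCCGCcaccaacgcc
EXO1, chr1:241848198-241848225 (+): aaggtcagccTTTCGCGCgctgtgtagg
FANCD2, chr3:10026425-10026452 (−): agttttcgacTTTCCCGCcaggcccgac
FANCA, chr16:89816802-89816829 (+): tgcgtttggcTTTGCCGCcgcggtgtag
FANCC, chr9:95317864-95317891 (+): gtgttcccggTTTCGCGCggaagccccg
FANCC, chr9:95317738-95317765 (−): tcgtcggaatTTTCCCGCgacgccgcgg
MSH3, chr5:80654535-80654566 (+): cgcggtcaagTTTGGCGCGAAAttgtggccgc
MSH6, chr2:47783138-47783165 (+): tccccccagaTTTCCCGCcagcaggagc
PMS2, chr7:6009132-6009159 (−): gggaagtattTTTGCCGCcccgcccgga
XRCC6, chr22:41621327-41621344 (−): TTTGGCGCagggaagcga

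XRCC2, EXO1 and FANCD2, the first 3 of these, were 2-fold lower. The other genes with a site were not called, among them FANCC, with a ratio of 0.900 and a pair of sites. The CHR motif was in 3 of the 60 windows (5.0%), those of BRIP1, FANCC and ATM, against 12.2% of the windows of genes at 1 CPM and 68.4% of those of G2 and mitosis genes. Over all genes at 1 CPM with a window, 10.1% of those with the CHR motif were lower, and 4.05% of those without it. CCAAT was in 48.3% of the members' windows and in 34.8% of those of genes at 1 CPM. Among members, CCAAT stood in 54.5% of the windows of lower genes and 44.7% of the others. A match is a run of letters and does not show that a factor binds. Only the exact letters given were searched, so a window without a match can still hold a variant of the motif. Whether E2F or CHR sites had a part in the ratios was not tested.

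**Figure D4:**
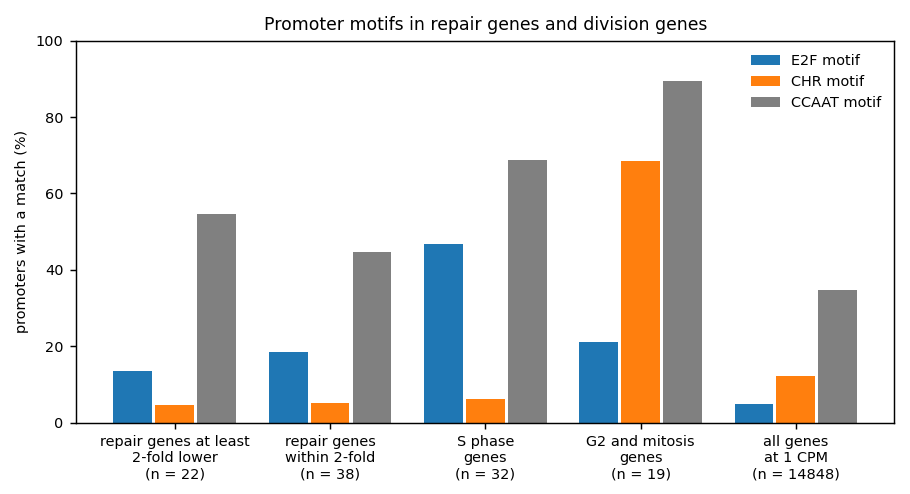
Share of 300-base promoter windows that hold the E2F, CHR or CCAAT motif on either strand, with n as the number of windows. The E2F bar is 13.6% for the lower repair genes and 18.4% for the other repair genes, and both lie below the 46.9% of S phase genes; the CHR bar is high in G2 and mitosis genes at 68.4%.

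Some repair genes start head to head with another gene, within 1000 bases on the opposite strand. This was so for 18 of the 46, and 14 of these neighbours reached 1 CPM. The share of all genes with such a neighbour was not counted. The neighbours had a median log2 ratio of -0.06, against -0.64 for their repair genes. None of the 4 measured neighbours of lower members was lower, where 5.1% of all genes at 1 CPM were. A set of 4 genes is too small to set apart from that share. NBR1, an autophagy receptor whose start lies 82 bases from a BRCA1 start, was at 196 CPM with HD and 166 CPM with DMSO (log2 ratio 0.24). HSCB, an iron-sulfur cochaperone beside CHEK2, had a log2 ratio of -0.12, where CHEK2 had -1.51. MOSPD2, beside FANCB, had 0.25, and ZFYVE21, beside XRCC3, had -0.33.

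Beside the members that were not called, 2 of 10 measured neighbours were lower, where 5.1% of all genes at 1 CPM were. MCM4, a subunit of the replicative helicase 805 bases from PRKDC, was at 114 CPM with HD and 365 CPM with DMSO (log2 ratio -1.68), where PRKDC had -0.70. MAP1A, a microtubule protein beside TP53BP1, was at 1.82 CPM with HD and 4.0 CPM with DMSO (log2 ratio -1.13). In the other pairs the neighbour did not reach 2-fold. The log2 ratios were -0.16 for DCTN5 beside PALB2, -0.06 for ANKRD49 beside MRE11 and 0.31 for ORMDL1 beside PMS1. They were -0.51 for AIMP2 beside PMS2, 0.36 for TMEM167A beside XRCC4 and 0.33 for DESI1 beside XRCC6. ABHD13 beside LIG4 had 0.00 and NPAT beside ATM had -0.06. ZAR1L, TEX14, IL5 and PURG, beside BRCA2, RAD51C, RAD50 and WRN, were under 1 CPM.

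**Figure D5:**
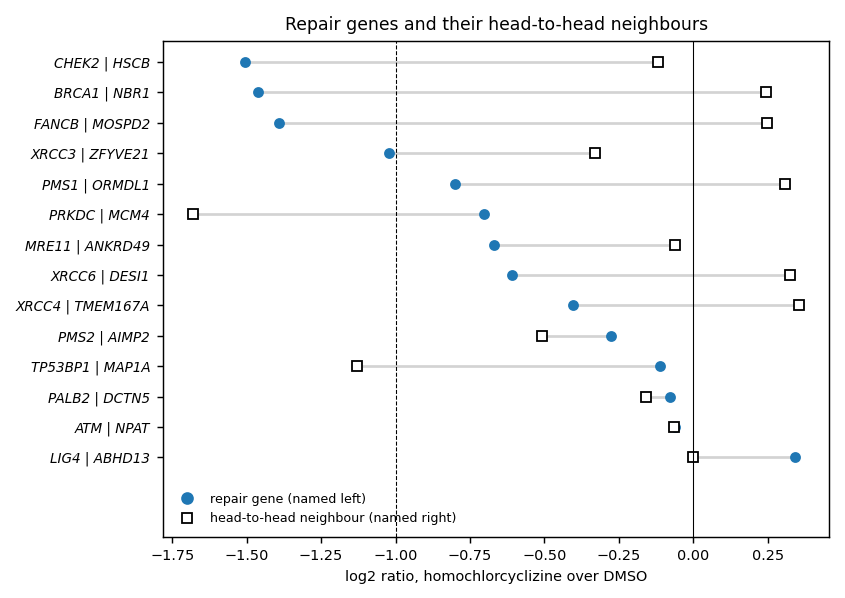
Log2 ratio of HD over DMSO for 14 repair genes (circles) and the gene that starts head to head with each within 1000 bases (squares), 1 library a group. The squares of CHEK2, BRCA1, FANCB and XRCC3 lie right of the dashed 2-fold line, and those of PRKDC and TP53BP1 lie left of it.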

How the data were processed

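Poly(A)-selected mRNA from 1 HD-treated and 1 DMSO-treated Huh7 culture was sequenced. The authors deposited whole-number counts per gene for both libraries (40791119 in total for HD, 38133894 for DMSO) and 1 FPKM table a library, in which counts are scaled to gene length and library total. The build was hg38, per the submitters' processing notes. Aligner, counter, strand setting and annotation: not given in the sources used here. Ratios of deposited FPKM matched those of counts to within 3.13e-05%, so FPKM served for levels between genes and as an alternative scale. A comparison between genes by FPKM also depends on the gene lengths used for it.

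Counts were scaled with TMM (edgeR 4.0.16, R 4.3.3). Log2 ratios used a prior count of 1, and intervals were exact Clopper-Pearson intervals at 95%, conditional on a gene's summed count (Python 3.11.15, numpy 2.4.6, pandas 2.3.3, scipy 1.17.1; figures with matplotlib 3.10.9). All 12353 genes at a mean of at least 1 CPM gave the background. The calculation was tested on simulated data. Alternatives were total scaling, DESeq2 1.42.0 size factors, a prior of 5, other filters and folds, FPKM with a pseudocount of 0.1, and removal of the trend with gene length. Exon overlaps and pseudogene matches (blastn 2.17.0, at least 300 bases) used GENCODE annotation of GRCh38; starts and promoters used RefSeq GRCh38.p14.

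The genes and lists were chosen with earlier results of these data known. All members are named, with up to 4 genes of each other list by absolute log2 ratio, every head-to-head neighbour, and the promoters of the 4 largest falls. Some genes of these pathways are not reported here.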

Additional observations from a re-analysis of the deposited data

How the results depend on the processing

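The count of 18 members at least 2-fold lower, and of 0 higher, was the same under total scaling, DESeq2 size factors, a prior count of 5, no filter, a filter at 5 CPM (45 members), FPKM and removal of the length trend. It was 28 at 1.5-fold and 5 at 3-fold, which follows from the threshold. The median log2 ratio of the members ran from -0.85 (length trend removed) to -0.80 (DESeq2 size factors). No call of a single member changed under those 7 settings. RAD50, at a ratio of 1.00, changed sign under total scaling, FPKM and length trend removal (log2 ratio -0.11). The length trend moved single log2 ratios by at most 0.16. The share of members' promoter windows with the E2F motif was 6.67% with the motif as TTTCGCGC or TTTGGCGC only, against 16.7%; in windows of genes at 1 CPM these shares were 1.85% and 4.84%. Counted by gene, an alternative chosen after seeing the data, it was 22.5%, against 6.63% of genes at 1 CPM. With starts within 300 bases, 0 of 9 measured neighbours were lower, against 2 of 14, where 5.1% of all genes at 1 CPM were. No paired analysis was possible because each group holds 1 library, and for the same reason no library could be left out. Whether these differences recur in other cultures was not measured.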

Other observations

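Base and nucleotide excision repair lie outside the 46 genes. In base excision repair 4 of 18 genes (22.2%) were at least 2-fold lower, against 5.1% of all genes, and 0 were higher, with a median log2 ratio of -0.30. NEIL3, a glycosylase, was at 5.28 CPM in the HD library and 21.4 CPM in the DMSO library (ratio 0.248, 0.211 to 0.287). UNG, which removes uracil from DNA, was at 51.3 CPM with HD and 150 CPM with DMSO (ratio 0.342, 0.325 to 0.359). PARP1, which signals strand breaks, was at 197 CPM with HD and 416 CPM with DMSO (ratio 0.475, 0.462 to 0.488). The scaffold XRCC1 had a ratio of 0.486 (0.444 to 0.532). In nucleotide excision repair 0 of 19 measured genes were 2-fold lower, against 5.1% of all genes, and 0 were higher, against 5.81%. A set of 19 genes is too small to set 0 apart from these shares. The median log2 ratio of nucleotide excision repair was -0.29. The lowest there were ERCC2, CCNH, ERCC8 and GTF2H5, with log2 ratios of -0.56, -0.53, -0.52 and -0.43.

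Targets of p53, a factor that ATM and CHEK2 activate, did not move as 1 list. Of 19 measured genes 3 (15.8%) were at least 2-fold higher, against 5.81% of all genes, and 1 (5.26%) was lower, against 5.1%. The median log2 ratio was 0.01, or 0.23 at a filter of 5 CPM. The activity of p53 itself was not measured. TP53INP1, a stress-induced nuclear protein, was at 165 CPM in the HD library and 35.6 CPM in the DMSO library. BBC3, a pro-apoptotic BCL2 family member, was 3.29-fold higher (2.78 to 3.95), and BTG2, an antiproliferative factor, was 3.19-fold higher (2.96 to 3.46). AEN, a nuclease, was at 22.0 CPM with HD and 44.8 CPM with DMSO, a ratio of 0.490 (0.452 to 0.532).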
